A study of Mus musculus with 42 samples.

Results

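The 7 genes described here, Sval1, Nxpe2, Stom, Slc37a2, Ceacam12, Plxnd1 and Matn2, were picked for how their RNA differed between mutant and WT crypts of the proximal mouse colon. They are 7 of 20462 genes with an identifier in the 9 deposited tables, and all 7 are listed in each table. Because measured values in proximal Mtg16-/- and Mtg16 T/T crypts chose them, those 2 contrasts are given as a description with no p, and counts over them support nothing. Libraries that the choice did not use gave the tests of the mutant contrasts in distal crypts at baseline and after injury, of the response of WT crypts to injury, and of tumors. The difference between colon segments in WT mice was also tested, but it shares its proximal WT libraries with the contrasts that chose the genes and is not independent of the choice.

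RNA was measured by RNA-Seq in 42 libraries under 14 conditions. All mice were on a C57/BL6 background and at least 8 weeks old, and they came from 2 separate colonies, each with its own matched WT littermates: mice without Mtg16 (Mtg16-/-) and mice homozygous for P209T in MTG16 (Mtg16 T/T). The alleles were inherited and not restricted to the epithelium. Crypts were isolated with EDTA from 5 cm of proximal colon, measured from the cecum, or from 5 cm of distal colon, measured from the anus. At baseline, proximal crypts gave 2 WT and 2 mutant libraries in each colony, and distal crypts gave 4 WT and 4 Mtg16-/- libraries in the null colony and 3 WT and 4 T/T libraries in the T/T colony. After 5 days of 2% dextran sodium sulfate (DSS) in the drinking water and 4 days of recovery, distal crypts gave 3 WT and 4 Mtg16-/- libraries and, in the T/T colony, 3 WT and 3 T/T libraries. Tumors were dissected whole from 3 WT and 3 T/T mice that had received 10 mg/kg azoxymethane and 3 cycles of 4 days of 3% DSS and 16 days of water. The 38 libraries in which whole reads could be recovered held 32231389 to 74661922 reads assigned to genes, and the other 4, from proximal mutant crypts, had normalized totals of 44178091 to 49481757.

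MTG16 (gene Cbfa2t3) is a transcriptional corepressor that binds, among other partners, the E proteins, basic helix-loop-helix transcription factors that recognize the E box, CANNTG. P209T weakens its binding to E proteins. The proximal and distal colon differ in embryonic origin, crypt shape and the transporters and mucus genes their epithelium uses, and Hox genes keep a record of position in the adult epithelium. The 7 genes fall into 3 kinds by role. Sval1 (seminal vesicle antigen-like 1) and Matn2 (matrilin 2, an extracellular matrix adaptor) encode secreted proteins. Ceacam12 (of the carcinoembryonic antigen-related immunoglobulin superfamily), Plxnd1 (plexin D1, the receptor of semaphorin 3E) and Stom (stomatin, a membrane protein of the SPFH domain family) act at membranes. Slc37a2 belongs to the sugar-phosphate exchangers of the endoplasmic reticulum, and Nxpe2 to a family named for neurexophilin and PC-esterase domains.

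In mouse build GRCm38 with GENCODE vM21, Sval1 (ENSMUSG00000029865.4) spans bases 41951630 to 41956098 of chromosome 6 on the plus strand, and Plxnd1 (ENSMUSG00000030123.15) spans bases 115954811 to 115995005 of the same chromosome on the minus strand. Nxpe2 (ENSMUSG00000032028.15) spans 48318006 to 48353454 and Slc37a2 (ENSMUSG00000032122.15) 37227585 to 37255738 of chromosome 9, both on the minus strand. Ceacam12 (ENSMUSG00000030366.10) lies at 18065929 to 18077986 of chromosome 7 on the plus strand, Stom (ENSMUSG00000026880.11) at 35313986 to 35336976 of chromosome 2 on the minus strand, and Matn2 (ENSMUSG00000022324.15) at 34306677 to 34436273 of chromosome 15 on the plus strand. Whether counting used strand is not given in the sources used here. Antisense genes share 241 of the 6643 exon bases of Slc37a2 (Gm48081) and 186 of the 2624 of Ceacam12 (Gm44613). On the strand opposite to Matn2, 9430069I07Rik shares 70 of its 6263. If counting ignored strand, reads from those bases cannot be told apart. Nxpe2 overlaps Nxpe4 with no exon base in common.

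The 250 bases before the RefSeq start of Sval1, Ceacam12 and Nxpe2 are printed below because these 3 genes had the same direction of difference, at more than 1 log2 unit, in both proximal mutants. Capitals mark the E box CANNTG, a pattern that reads the same on both strands and was searched with overlap between matches allowed.
Sval1: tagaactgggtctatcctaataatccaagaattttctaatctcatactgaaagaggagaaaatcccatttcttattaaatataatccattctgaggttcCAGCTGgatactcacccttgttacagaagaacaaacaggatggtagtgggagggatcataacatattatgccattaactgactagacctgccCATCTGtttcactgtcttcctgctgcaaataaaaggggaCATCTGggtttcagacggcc
Ceacam12: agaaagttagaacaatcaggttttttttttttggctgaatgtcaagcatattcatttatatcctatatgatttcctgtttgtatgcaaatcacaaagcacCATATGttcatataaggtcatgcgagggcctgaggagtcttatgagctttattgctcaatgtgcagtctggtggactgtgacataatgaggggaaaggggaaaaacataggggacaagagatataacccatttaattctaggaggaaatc
Nxpe2: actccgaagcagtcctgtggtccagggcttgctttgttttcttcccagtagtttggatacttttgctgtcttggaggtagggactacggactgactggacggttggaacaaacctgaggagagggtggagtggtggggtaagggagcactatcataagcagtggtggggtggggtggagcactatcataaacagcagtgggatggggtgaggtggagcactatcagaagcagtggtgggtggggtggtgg
In build GRCm38.p6 they are chr6:41951378-41951627 on the plus strand, chr7:18065679-18065928 on the plus strand (the first of 2 listed starts of Ceacam12) and chr9:48340899-48341148 on the minus strand, at a start inside the longer GENCODE gene of Nxpe2. The Sval1 window holds 3 E boxes, CAGCTG beginning at base -151 from the start and CATCTG at -59 and -20. The Ceacam12 window holds 1, CATATG at -150, and the letters do not occur in the Nxpe2 window. Of the other members with an entry in the RefSeq promoter table, Stom has 1 (CAGCTG at -22) and Slc37a2 and Plxnd1 have 0, while Matn2 was not matched. At least 1 E box stood in 3 of 6 member windows and in 17848 of 27025 windows of all genes (66.0%), and 12.1% of all windows held at least 3, as the Sval1 window does. The median over all windows was 1.

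The libraries were checked against their labels before the members were read. Cbfa2t3 was 631 and 1057 normalized counts in proximal Mtg16-/- crypts against 1634 and 3221 in WT crypts, and 424 to 1095 in distal Mtg16-/- against 1027 to 1809 in distal WT crypts. It was not absent, and P209T leaves the transcript in place, so Cbfa2t3 does not check the T/T labels. Hoxb13 (distal) was 16898 to 19501 in the 7 distal WT libraries and 12.6 to 259 in the 4 proximal ones, and Hoxb6 (proximal) was 32.2 to 62.7 and 1854 to 3091. The library labelled distal Mtg16-/- replicate 2 went against its segment label. It had 245 normalized counts of Hoxb13, 0 of Hoxd13 and 2883 of Hoxb6, whereas the other 3 distal Mtg16-/- libraries had at most 47.5 of Hoxb6 and at least 17409 of Hoxb13. The differences of members between distal Mtg16-/- and WT crypts are given below with and without it, and values from all libraries at once hold it unless stated. All libraries of the null colony's proximal table carried Xist and all of the T/T colony's proximal table carried Ddx3y, and these tables came from different sequencing requests, so colony, sex and request cannot be told apart between them.

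In proximal Mtg16-/- crypts, Sval1 was higher than in WT and Nxpe2, Ceacam12 and Plxnd1 were lower, each by over 2 log2 units. Values are normalized counts, that is, reads per gene divided by a size factor for the library within its table. Sval1 had 187 and 266 in the 2 WT libraries and 4342 and 3059.8 in the 2 Mtg16-/- libraries. Nxpe2 had 1912 and 1213 in WT and 49.2 and 81.8 in Mtg16-/-. The Ceacam12 values were 1670.3 and 1483 in WT and 211 and 164 in Mtg16-/-. In these 3 genes no mutant library came near a WT library. On the scale of log2 (normalized count + 1) the differences were 4.02 (SE 0.238) for Sval1, -4.56 (SE 0.329) for Nxpe2 and -3.07 (SE 0.195) for Ceacam12, the 13th, 7th and 27th largest in size of 13944 genes.

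The plexin D1 receptor gene had 570.2 and 503 in WT and 91.7 and 104 in Mtg16-/- proximal crypts, a Plxnd1 difference of -2.45 (SE 0.225) on the log2 scale. Matn2 had 508 and 432 in WT and 286 and 280.4 in Mtg16-/- (-0.72, SE 0.194). Slc37a2 had 11184 and 11285 in WT and 4053 and 9082 in Mtg16-/- (-0.89, SE 0.334), and the mutant libraries lay far apart from each other. Stom was the only member whose groups overlapped, with 2509 and 2365 in WT and 4934 and 2464 in Mtg16-/- (0.52, SE 0.295). By limma with Benjamini-Hochberg adjustment 4 of the 7 passed 0.05, beside 0.0645% of all genes tested, and 6 of 7 had groups without overlap, beside 35.6%. The members were picked on these values, so nothing is read from those counts.

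In proximal T/T crypts Sval1, Nxpe2, Ceacam12 and Plxnd1 stood on the same side of WT as in Mtg16-/- crypts, and Slc37a2 and Matn2 on the opposite side. Sval1 had 347 and 622 in WT and 1559.5 and 1402 in T/T, a log2 difference of 1.67 (SE 0.261). Nxpe2 had 1095 and 1575 in WT and 178 and 358 in T/T (-2.37, SE 0.339). Ceacam12 had 1635 and 1084 in WT and 624 and 346 in T/T (-1.52, SE 0.309). Each of these differences of Sval1, Nxpe2 and Ceacam12 was smaller in size than the corresponding Mtg16-/- difference, a comparison between colonies for which no test was made.

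Slc37a2, the exchanger, had 5981 and 6907 in WT and 25771 and 22927 in T/T proximal crypts, a log2 difference of 1.92 (SE 0.105). Matn2 had 344 and 394 in WT and 908 and 926 in T/T (1.31, SE 0.13). Stom had 3819.6 and 4229 in WT and 1838 and 1510.0 in T/T (-1.27, SE 0.121). The Slc37a2 and Matn2 libraries of T/T mice were all above WT where those of Mtg16-/- mice were all below, and Stom was lower in T/T where its Mtg16-/- libraries overlapped WT. Plxnd1 had 111 and 172 in WT and 85.7 and 80.5 in T/T (-0.72, SE 0.279), and both WT values lay below the 2 WT values of the null colony. With limma 3 of 7 passed (0.232% of all genes) and 7 of 7 had no overlap (45.5% of all genes), counts that carry the same limit as above. The median size of the 7 differences was 2.45 in Mtg16-/- and 1.52 in T/T, beside 0.144 and 0.146 over all genes.

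Summed levels of other genes differed between these groups too. The 2 proximal position markers (Hoxb6 and Cyp2c55) summed to 88262 to 92990 in Mtg16-/- against 112839 to 140130 in WT, and to 135831 to 154877 in T/T against 86799 to 99253 in WT. Cyp2c55 made up most of these sums, with 85144 and 90144 in Mtg16-/- against 110252 and 136796 in WT. Hoxb6 overlapped there, at 2845 and 3117 in Mtg16-/- against 2587 and 3334 in WT, and was apart in T/T crypts, at 2774 and 3123 against 1784 and 2509 in WT. Of 8 goblet cell markers 7 were in the tables, and they summed to 527407 to 628136 in Mtg16-/- against 378401 to 431082 in WT, and to 357395 to 379342 in T/T against 314227 to 323112 in WT. A sum, here and below, is set mostly by its most abundant genes, and Muc2 was not analysed. The paper reported the opposite direction in both mutants, with fewer stained goblet cells and lower RNA of goblet-associated genes. No goblet cell number is read from these sums. Enteroendocrine markers (6 of 6) summed to 19060 to 30581 in Mtg16-/- against 13735 to 17438 in WT, and to 20556 to 25644 in T/T against 13706 to 16709 in WT. B and plasma cell markers (5 of 5) summed to 2074 to 2388 in Mtg16-/- against 514 to 1414 in WT, and epithelial markers (6 of 6) to 693141 to 775955 against 593293 to 686535. In T/T crypts surface colonocyte markers (6 of 6) summed to 178126 to 196242 against 159518 to 160299 in WT, endothelial markers (5 of 5) to 148 to 178 against 93.5 to 94.8, and tuft cell markers (5 of 5) to 1343 to 1529 against 1250 to 1336. Ileum and Paneth cell markers (3 of 4) summed to 414 to 420.2 in Mtg16-/- against 185 to 194 in WT. Glial markers (3 of 4) summed to 28.9 to 33.5 in Mtg16-/- against 11.4 to 25.8 in WT, and to 20.1 to 50.3 in T/T against 13.9 to 15.1 in WT. The 1 distal position marker in the T/T table had 0 to 11.1 in T/T against 27.1 to 249 in WT. None of these summed ranges overlapped. The part of these in the members' values was not tested. In bulk crypts, fewer cells of a type and less RNA per cell cannot be told apart.

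**Figure D1:**
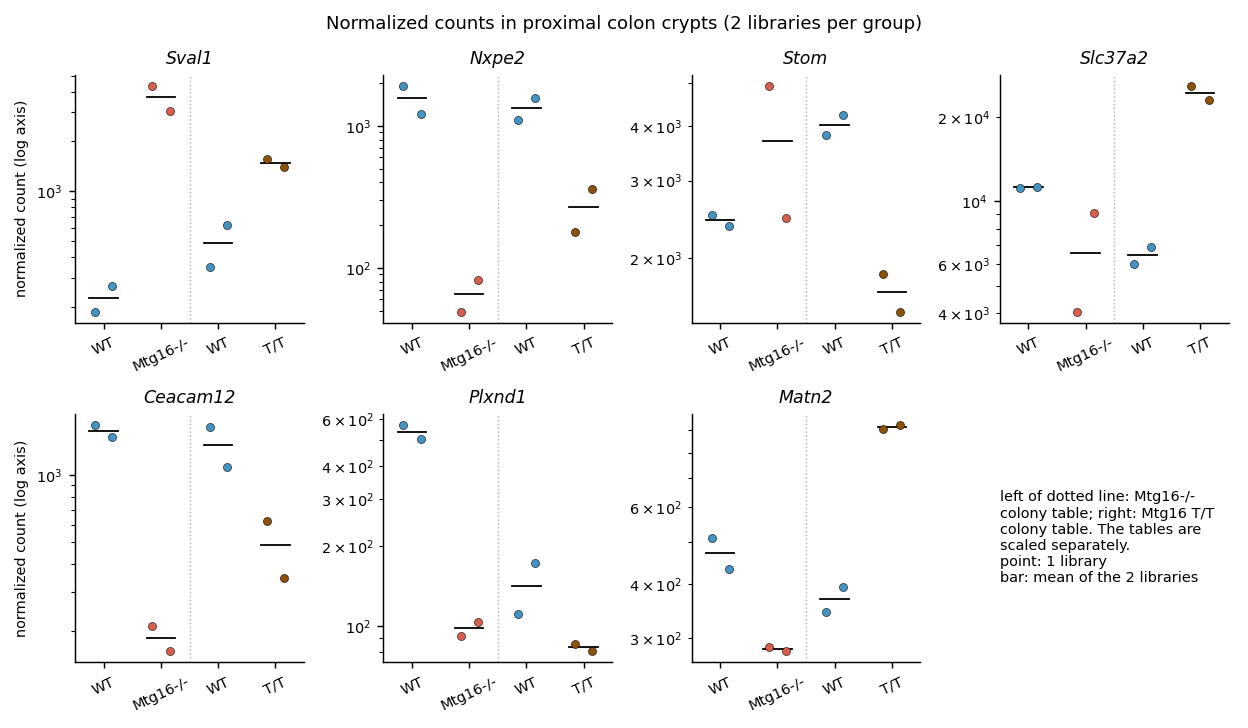
Normalized counts (log axis) of the 7 genes in each proximal library, by colony and genotype; points are libraries and bars are group means. Sval1 lies above WT and Nxpe2, Ceacam12 and Plxnd1 lie below WT in both mutants, while Slc37a2 and Matn2 lie below WT in Mtg16-/- and above WT in T/T.

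In WT mice Sval1, Nxpe2 and Stom were higher in the distal colon, and Ceacam12, Plxnd1 and Matn2 were higher in the proximal colon. Slc37a2 was higher in the distal colon over all WT libraries but not within the 1 sequencing request that holds both segments, where its difference was -0.13. The description of the set as proximal colon genes follows from the choice, which was made on proximal mutant crypts. By WT level it holds for 3 of them. With limma and Benjamini-Hochberg adjustment, 7 of 7 members passed 0.05, 4 higher and 3 lower in distal crypts, beside 42.1% of all 13841 genes (20.1% higher, 22.0% lower). The median size of the members' differences was 2.63 log2 units, against 0.243 over all genes. The 7 distal and 4 proximal WT libraries come from both colonies and were scaled together. The proximal WT libraries are the same ones that served as controls above, so a chance deviation in them enters both comparisons. The labels do not say whether proximal and distal crypts came from the same mice. If they did in request 4149, the distal Mtg16-/- contrast at baseline shares mice with the proximal one that chose the genes.

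Sval1 had 174, 249, 357 and 646 in the 4 proximal WT libraries and 11394 to 17652 (median 14384) in the 7 distal ones. The means were 356 ± 207 (SD, n = 4) and 14852 ± 2165 (SD, n = 7), and no distal library came within reach of a proximal one. The log2 difference was 5.54 (SE 0.261), with a limma adjusted p of 1.58e-09. On the common scale of all libraries given further on, proximal Mtg16-/- crypts stood between the WT crypts of the 2 segments in Sval1.

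Nxpe2 had 1773, 1138, 1126 and 1638 in proximal and 6712 to 11661 (median 9104) in distal WT crypts, with means of 1419 ± 335 (SD, n = 4) and 8975 ± 1788 (SD, n = 7). Its log2 difference was 2.67 (SE 0.165, limma adjusted p = 2.19e-08), and the groups did not overlap. Stom had 2327, 2218, 3929 and 4396 in proximal and 7819.7 to 12112 (median 9085) in distal crypts, a log2 difference of 1.60 (SE 0.187, limma adjusted p = 1.09e-05). Thus the 2 genes, Sval1 and Nxpe2, that were both higher in distal crypts stood on opposite sides of WT in the proximal mutants.

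Ceacam12 had 1549, 1391, 1682 and 1127 in proximal WT crypts and 37.1 to 147 (median 90.1) in distal ones, the opposite gradient. Its log2 difference was -3.98 (SE 0.32, limma adjusted p = 2.78e-07). Matn2 had 471, 405, 354 and 409.7 in proximal and 52.5 to 78.5 (median 65.5) in distal crypts, a log2 difference of -2.63 (SE 0.149, limma adjusted p = 9.35e-09). Neither gene's groups overlapped. For these 2 and for Sval1, Nxpe2 and Stom, the two-sided exact permutation p over libraries was 0.00606, the smallest that 7 against 4 libraries allow, and 5 of 7 members were without overlap beside 30.0% of all genes.

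Plxnd1 and Slc37a2 differed less clearly. Plxnd1 had 529 and 472 in the proximal WT libraries of the null colony but 114 and 179 in those of the T/T colony, and 47.4 to 217 (median 64.7) in distal crypts. Its log2 difference was -1.60 (SE 0.511, limma adjusted p = 0.0217, exact permutation p = 0.0424). Without either proximal WT library of the null colony the limma adjusted p of Plxnd1 was 0.0823 or 0.0812, so the call rests on both. Within sequencing request 4149, which holds both segments of the null colony's WT mice, the Plxnd1 difference was -1.25 (limma adjusted p = 0.011).

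Slc37a2 had 10370.5, 10584, 6152 and 7180.5 in proximal and 8112 to 20074 (median 12721) in distal WT crypts. Its log2 difference was 0.68 (SE 0.225, limma adjusted p = 0.0255, exact permutation p = 0.0364), and the groups overlapped. Within request 4149 the Slc37a2 difference was -0.13 (limma adjusted p = 0.713), so its direction did not hold there, and with the request as a covariate it was again -0.13 (limma adjusted p = 0.752). Without proximal WT replicate 1 or 2 of the T/T colony its limma adjusted p was 0.0981 or 0.0758.

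Marker lists also differed between the segments. Myeloid markers (7 of 7 in the table) summed to 564 to 1234 in distal and 1996 to 3023 in proximal WT crypts, T cell markers (4 of 5) to 267 to 1070 and 1854 to 3035, and endothelial markers (5 of 5) to 32.2 to 81.4 and 84.4 to 205. Tuft cell markers (5 of 5) summed to 614 to 1016 in distal and 1063 to 1876 in proximal crypts. Goblet cell markers (7 of 8) were higher in distal crypts, at 518242 to 958428 against 323247 to 399729, and smooth muscle markers (5 of 5) too, at 81.3 to 198 against 38.3 to 74.1. None of these ranges overlapped, and their part in the members' differences between segments was not tested. Fibroblast markers (6 of 6), from cells that make matrix proteins, summed to 28.2 to 189 in distal and 58.9 to 176 in proximal crypts, overlapping ranges.

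**Figure D2:**
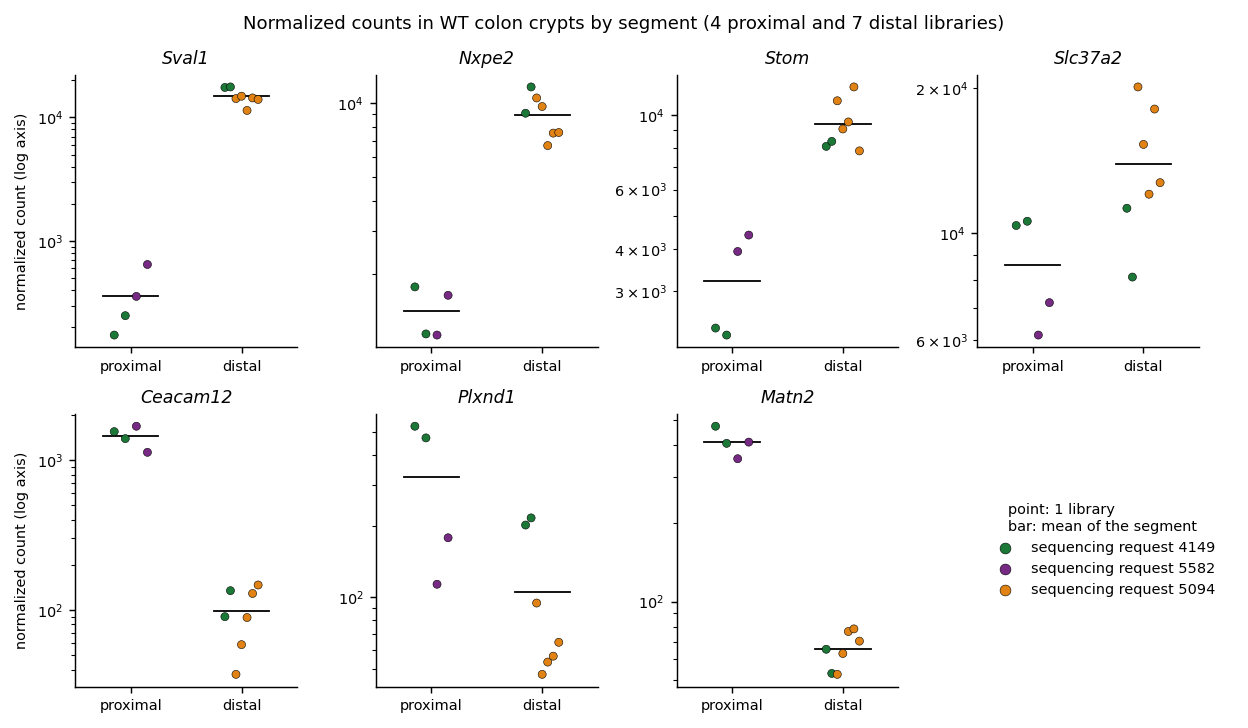
Normalized counts (log axis) of the 7 genes in the 4 proximal and 7 distal WT libraries; points are libraries coloured by sequencing request and bars are group means. Sval1, Nxpe2 and Stom are higher and Ceacam12 and Matn2 lower in every distal library, while Slc37a2 and Plxnd1 overlap.

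The relatives of the members, listed by gene family, were read in the same WT comparison. Of 55 listed genes 32 were expressed enough to test, and 7 were higher and 8 lower in distal crypts, 15 of 32 beside the 42.1% of all genes called (20.1% higher, 22.0% lower). Nxpe4, the neighbour of Nxpe2 in the genome and a member of its family, had 7362 to 13220 in distal and 78.0 to 365 in proximal WT crypts, a log2 difference of 5.98 (SE 0.321, limma adjusted p = 5.57e-09). Nxpe3 went the other way (-1.41, SE 0.362, limma adjusted p = 0.00634). The 2 tested NXPE relatives therefore had opposite gradients.

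Among 13 tested plexins, class 3 semaphorins and their coreceptors, 1 was higher and 5 were lower in distal WT crypts. Sema3e, the ligand of plexin D1, had 11.3 to 31.6 in distal and 86.9 to 149.7 in proximal crypts (log2 difference -2.49, SE 0.273, limma adjusted p = 5.96e-06). Sema3g (-4.46, SE 0.442, limma adjusted p = 2.2e-06) and Nrp2, a semaphorin coreceptor (-1.94, SE 0.238, limma adjusted p = 1.88e-05), were lower in distal crypts as well. Of 6 tested CEACAM genes 3 were higher and 1 was lower, with Ceacam9 at 2.48 (SE 0.497, limma adjusted p = 0.00117), Ceacam1 at -1.22 (SE 0.174, limma adjusted p = 6.77e-05) and Ceacam2 at 0.94 (SE 0.183, limma adjusted p = 0.000984). None of the 6 CEACAM relatives had the size of the Ceacam12 gradient. Flot2 at 0.95 and Phb2 at -0.24, of 8 tested SPFH genes, and Slc37a4 at 0.27, of 3 tested SLC37 genes, passed as well. No relative of Sval1 or Matn2 was expressed enough to test.

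In distal crypts at baseline, loss of Mtg16 gave no member past the threshold, with or without the library that went against its label. The count was 0 of 7 beside 0.239% of all genes (33 of 13831, with 641 at an unadjusted p under 0.05), and 0 of 7 beside 1.04% without that library. With all 8 libraries, edgeR and DESeq2 also called 0 of 7. Sval1 had 14557, 15254, 17974 and 18058 in WT and 12778, 15388 and 17349 in Mtg16-/- crypts, with 4518 in the library labelled distal Mtg16-/- replicate 2. Its log2 difference was -0.56 (SE 0.38) with that library and -0.12 without it. Nxpe2 had 10762, 9959.9, 9359 and 11929.5 in WT and 10851, 7152 and 10521 in Mtg16-/- crypts, with 284 in the library labelled replicate 2 (-1.42, SE 1.06, and -0.16 without it). In both genes this library held the lowest of the 8 values.

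Stom had 8291 to 11281 in WT and 8617, 14613 and 8449 in Mtg16-/- distal crypts, with 1866 in the library labelled replicate 2, and its log2 difference turned from -0.48 to 0.14 without it. Slc37a2 had 8298 to 20554 in WT and 24033, 13531, 9399 and 26486 in Mtg16-/- (0.35 with all libraries and 0.45 without the library labelled replicate 2, at 13531). The libraries of both groups spread widely in Slc37a2, and the groups overlapped. Plxnd1 had 97.0, 48.6, 208 and 222 in WT and 102, 74.3, 48.3 and 61.3 in Mtg16-/- crypts, a log2 difference of -0.81 (SE 0.488) with all libraries and -0.85 without the library labelled replicate 2. Within request 4149 it was -1.96 (limma adjusted p = 0.475) and within request 5094, which holds the library labelled replicate 2, it was 0.34 (limma adjusted p = 0.847).

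Ceacam12 had 38.0, 60.2, 92.6 and 137 in WT and 23.2, 59.7 and 19.6 in Mtg16-/- distal crypts, with 113 in the library labelled replicate 2. The log2 difference was -0.79 (SE 0.609) with it and -1.26 (limma adjusted p = 0.69) without it. Matn2 had 53.8, 64.8, 67.4 and 54.2 in WT and 75.3, 71.0 and 72.8 in Mtg16-/- crypts, and 374 in the library labelled replicate 2. It was the only member whose groups did not overlap (1 of 7, beside 3.75% of all genes), with a log2 difference of 0.87 (SE 0.516, limma adjusted p = 1.00) and an exact permutation p of 0.0286, the smallest that 4 against 4 allow and unadjusted over 49 such tests. Without that library the Matn2 difference was 0.29. Enteroendocrine markers (6 of 6) summed to 28690.1 to 36857 in Mtg16-/- and 11197 to 13458 in WT distal crypts, without overlap, and their part in the members' values was not tested.

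In distal T/T crypts 0 of 7 members passed the threshold with limma (5 of 13535 genes did, 0.0369%, and 629 had an unadjusted p under 0.05). Ceacam12 stood apart from the rest. It had 83.5, 120.5 and 135 in WT and 20.3, 37.8, 48.6 and 32.6 in T/T crypts, with means of 113 ± 26.6 (SD, n = 3) and 34.8 ± 11.7 (SD, n = 4). All 4 T/T libraries lay below all WT libraries, in 1 of 7 members beside 7.70% of all genes. The log2 difference was -1.71 (SE 0.322, 95% CI -2.46 to -0.95), the unadjusted limma p was 0.000955 and the limma adjusted p was 0.464. DESeq2 on recovered reads gave an adjusted p of 0.000503 and edgeR 0.44, and the exact permutation p was 0.0571, the smallest that 4 against 3 allow. Goblet cell markers (7 of 8) summed to 608577 to 719007 in T/T and 485077 to 582077 in WT, enteroendocrine markers (6 of 6) to 13118 to 22070 and 10532 to 12641, and distal position markers (3 of 4) to 20530 to 23783 and 19866 to 20277, all without overlap. Their part in the Ceacam12 difference was not tested.

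The other 6 members had log2 differences of -0.25 to 0.06 in distal T/T crypts, with limma adjusted p of 0.863 to 0.981. Sval1 had 10700.0, 13464 and 12892 in WT and 9184, 14283, 13990.1 and 10069 in T/T (95% CI of the log2 difference -0.50 to 0.35). The interval for Nxpe2 was -0.32 to 0.44, for Stom -0.75 to 0.25 and for Slc37a2 -0.73 to 0.85. The distal Mtg16-/- effect minus the distal T/T effect ranged from -1.48 to 0.91 over the members, with adjusted p of 0.955 to 0.965 from limma's standard errors (0 of 13442 genes called, 315 at an unadjusted p under 0.05). The -1.48 is that of Nxpe2, which was -0.22 without the library labelled distal Mtg16-/- replicate 2. Without it the range was -0.76 to 0.45, and limma called 2 of 13446 genes and 0 of 7 members.

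**Figure D3:**
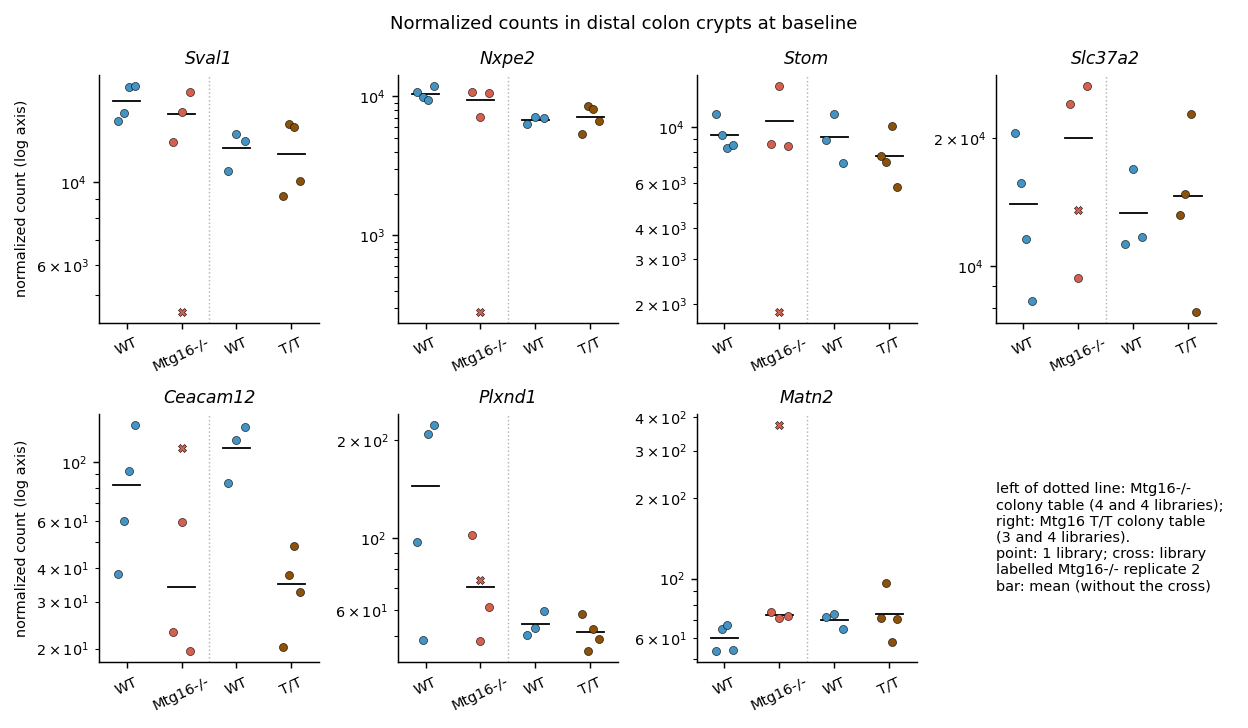
Normalized counts (log axis) of the 7 genes in baseline distal libraries of both colonies; points are libraries, the cross is the library labelled Mtg16-/- replicate 2, and bars are group means that leave it out. Ceacam12 is lower in all 4 T/T libraries, and the cross lies far from the other Mtg16-/- points in Sval1, Nxpe2, Stom and Matn2.

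After DSS and recovery, Nxpe2 was lower in Mtg16-/- than in WT distal crypts. It had 4189, 5713 and 7024 in WT and 2408, 2672, 2564 and 2793 in Mtg16-/- libraries, with means of 5642 ± 1419 (SD, n = 3) and 2609 ± 164 (SD, n = 4). The log2 difference was -1.08 (SE 0.18), with a limma adjusted p of 0.0348 (exact permutation p = 0.0571, the smallest possible). Nxpe2 was the 1 member of 7 that passed, beside 0.629% of all genes (91 of 14476). Its call was lost without any of the libraries WT 2, WT 3 or Mtg16-/- 1, 2, 3 or 4 (limma adjusted p 0.0514 to 0.122), and with the Xist level as a covariate (limma adjusted p = 0.125), while the log2 difference stayed between -1.28 and -0.91 in each of 14 alternatives.

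Xist, which marks female cells, was 0 to 1.84 in Mtg16-/- libraries 1, 2 and 3 and 2169 in library 4. It was 3621, 32425 and 0 in WT libraries 1, 2 and 3, so its level was not balanced between these groups. The Y-linked gene Ddx3y was 377 in Mtg16-/- library 4 and 237 and 150 in WT libraries 1 and 2. These libraries thus carried transcripts of both genes, and Xist alone does not give their sex.

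Slc37a2 had 3734, 6189 and 7678 in WT and 1610.4, 1053, 1368 and 3429 in Mtg16-/- crypts after DSS, a log2 difference of -1.74 (SE 0.384, limma adjusted p = 0.0784). Plxnd1 had 174, 84.0 and 134 in WT and 288, 189.6, 284 and 202 in Mtg16-/- (0.91, SE 0.299, limma adjusted p = 0.217). In Nxpe2, Slc37a2 and Plxnd1 the groups did not overlap (3 of 7, beside 11.4% of all genes). Sval1 had 19467, 22874 and 17842 in WT and 11334, 12477, 14013 and 19046 in Mtg16-/- (-0.52, SE 0.195, limma adjusted p = 0.305), and Stom, Ceacam12 and Matn2 differed by -0.05 to 0.36.

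In these libraries same-numbered WT and Mtg16-/- samples deviated together, and a fit with the replicate number as a block called 4 of 7 members (8.78% of all genes): Nxpe2 at -1.12 (limma adjusted p = 0.0019), Slc37a2 at -2.09 (0.0015), Sval1 at -0.67 (0.013) and Plxnd1 at 0.99 (0.0176). No label explains the numbers, and the pairing was read from these same libraries. The smaller p-values of the block fit therefore add no support. Myeloid markers (7 of 7 in the table) summed to 4854 to 15042 in Mtg16-/- and 1255 to 3050 in WT libraries, B and plasma cell markers (5 of 5) to 564 to 1863 and 331 to 761, and fibroblast markers (6 of 6) to 448 to 4411 and 399 to 490, of which only the myeloid ranges were apart. Crypt base markers (5 of 5) summed to 6902 to 8628 in Mtg16-/- and 9455 to 10417 in WT, enteroendocrine markers (6 of 6) to 22388 to 24963 and 12459 to 17781, tuft cell markers (5 of 5) to 449 to 505 and 627 to 905, red blood cell markers (2 of 3) to 117 to 1580.2 and 15.6 to 78.4, and ileum and Paneth cell markers (3 of 4) to 332 to 571 and 696 to 1109, all without overlap. The part of all these in the members' differences was not tested. Epithelial markers (6 of 6) summed to 779014 to 1055880 in Mtg16-/- and 774053 to 1011840 in WT, overlapping ranges.

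In T/T crypts after DSS 0 of 7 members passed with limma, nor did any of 13648 genes (1197 at an unadjusted p under 0.05, 0 with edgeR and 298 with DESeq2). Slc37a2 had 4782, 4373 and 10512 in WT and 617, 2050.2 and 737 in T/T, and all T/T libraries lay below all WT libraries. The log2 difference was -2.63 (SE 0.539, 95% CI -3.91 to -1.34, limma adjusted p = 0.215), and DESeq2 on recovered reads gave an adjusted p of 0.0015. Ceacam12 had 50.8, 69.1 and 70.6 in WT and 128, 113 and 77.3 in T/T (0.71, SE 0.314, limma adjusted p = 0.599), the side of WT opposite to baseline. These were the 2 of 7 members without overlap, beside 13.7% of all genes. The other 5 members had log2 differences of -0.46 to 0.53 and limma adjusted p of 0.721 to 0.854, and the smallest exact permutation p that 3 against 3 allow is 0.1. Myeloid markers summed to 1581 to 1986 in T/T and 626 to 1290 in WT, and goblet cell markers (7 of 8) to 676370 to 769462 and 1119940 to 1292260, without overlap. Surface colonocyte markers (6 of 6) summed to 92336 to 141098 in T/T and 152764 to 191656 in WT, crypt base markers (5 of 5) to 7909 to 8646 and 8755 to 10062, distal position markers (3 of 4) to 10847 to 19951 and 25758 to 28529, B and plasma cell markers (5 of 5) to 723 to 769.7 and 219 to 391, T cell markers (4 of 5) to 320 to 399 and 404 to 485, ileum and Paneth cell markers (3 of 4) to 381 to 439 and 955 to 1018, and red blood cell markers (2 of 3) to 175 to 949.6 and 48.7 to 163, again without overlap. The part of any of these in the Slc37a2 and Ceacam12 differences was not tested.

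Whether the T/T effect itself differed between injury and baseline was tested directly. All differences of effects used the fits without a replicate block. For Ceacam12 the effect after DSS minus the effect at baseline was 2.42 (SE 0.45, 95% CI 1.46 to 3.38, adjusted p = 0.043 from limma's standard errors), beside 0.234% of 13243 genes called. It was the 1 member of 7 called, and without the filter on low values its adjusted p was 0.0506 with limma. For Slc37a2 the T/T difference of effects was -2.68 (SE 0.636, adjusted p = 0.114 with limma). For Slc37a2 in Mtg16-/- mice it was -2.09 (SE 0.541, adjusted p = 0.452 with limma), in a comparison that called 0 of 7 members beside 0.00738% of 13559 genes. Without the library labelled distal Mtg16-/- replicate 2 it was -2.19 (adjusted p = 0.12 with limma), where 0 of 7 members and 49 of 13490 genes were called. The same Mtg16-/- difference of effects went from 0.34 to -0.92 for Nxpe2, from 0.42 to -0.19 for Stom, from 0.04 to -0.40 for Sval1 and from -0.51 to 0.08 for Matn2 without that library, so no direction is read from these 4. Each baseline table and its DSS table share no library.

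WT distal crypts after DSS were compared with WT distal crypts at baseline in the T/T colony. Nxpe2, Slc37a2 and Ceacam12 were lower after DSS in the WT mice of that colony, 3 of 7 members lower beside 21.6% of all genes. Nxpe2 had 7323, 8107 and 8088 at baseline and 1739, 1489.5 and 4425 after DSS, a log2 change of -1.80 (SE 0.393, limma adjusted p = 0.0199). Slc37a2 had 13137, 19406 and 13555 and then 4399, 4056 and 9956 (-1.43, SE 0.361, limma adjusted p = 0.027). Ceacam12 had 97.0, 138 and 156 and then 46.7, 64.1 and 66.9 (-1.12, SE 0.273, limma adjusted p = 0.025). No baseline library overlapped a DSS library in these 3 genes. Plxnd1 had 58.2, 60.7 and 68.9 at baseline and 114, 137 and 81.6 after DSS (0.79, SE 0.257, limma adjusted p = 0.0529), again without overlap, which 4 of 7 members and 55.3% of all genes had. Sval1, Stom and Matn2 differed by -0.34 to 0.00 with limma adjusted p of 0.169 to 0.998.

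In the null colony no table holds baseline and DSS WT libraries together, and they were set side by side, with no test, on the common scale of all libraries given further on. Nxpe2 was 11023 ± 1185 (SD, n = 4) at baseline and 4907 ± 1195 (SD, n = 3) after DSS, and Slc37a2 was 14708 ± 5525 and 5098 ± 1690.3, lower after DSS without overlap as in the T/T colony. Ceacam12 stood the other way round, at 86.2 ± 45.6 and 152 ± 72.3, and so did Plxnd1, at 151 ± 89.2 and 114 ± 41.6, and in both the groups overlapped. Matn2 was 63.0 ± 7.4 and 137 ± 12.5, without overlap.

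Baseline and DSS libraries came from different sequencing requests throughout, so request and injury cannot be told apart. Leaving out any library but DSS WT replicate 3 took the count of members called from 3 to 0, and leaving out DSS WT replicate 3 took it to 5. With the Xist level as a covariate the count was also 0, with limma adjusted p of 0.0908 for Nxpe2, 0.0965 for Slc37a2 and 0.0748 for Ceacam12. Goblet cell markers (7 of 8) summed to 1060700 to 1188810 after DSS and 556625 to 676268 at baseline, epithelial markers (6 of 6) to 828027 to 1175840 and 690772 to 774073, fibroblast markers (6 of 6) to 147 to 356 and 43.7 to 113, B and plasma cell markers (5 of 5) to 201.3 to 370.4 and 419.6 to 861, and distal position markers (3 of 4) to 24328 to 26459 and 22796 to 23558. None of these ranges overlapped, and their part in the members' changes was not tested. Of the 31 relatives tested here 7 were higher and 3 lower after DSS, 10 of 31 beside 35.6% of all 13566 genes (1897 higher and 2936 lower), among them Nxpe4 (-1.63, SE 0.384, limma adjusted p = 0.0231), and 0 relatives passed in any mutant comparison of distal crypts or tumors.

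**Figure D4:**
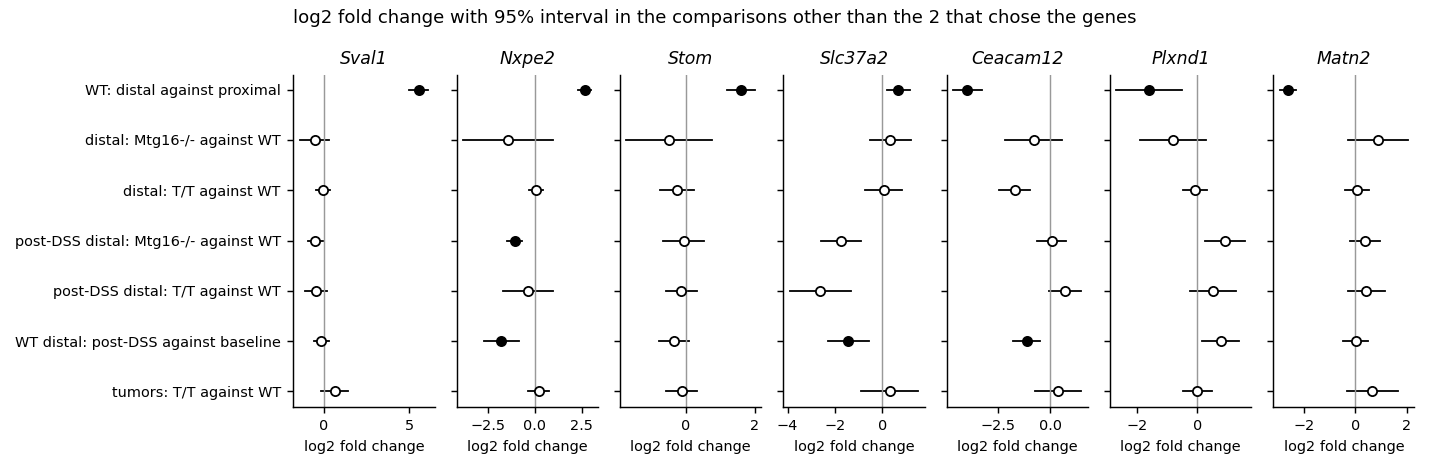
Log2 differences of the 7 genes in the comparisons other than the 2 proximal mutant contrasts, with 95% intervals from limma; filled points have an adjusted p under 0.05. All 7 points of the WT segment comparison, which shares its proximal libraries with those contrasts, are filled, and Nxpe2 lies below 0 in Mtg16-/- crypts after DSS.

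In tumors 0 of 7 members passed the threshold between T/T and WT mice with limma, edgeR or DESeq2, and 0 of 7 were without overlap beside 5.52% of all genes, with limma log2 differences of -0.12 to 0.66 and an adjusted p of 0.998 for each. Over all genes limma called 0 of 15900 (392 at an unadjusted p under 0.05), edgeR 0 and DESeq2 30. Sval1 had 9678, 5365 and 3672 in WT and 10069, 10233 and 6733 in T/T tumors (95% CI of the log2 difference -0.16 to 1.40). Matn2 had 922, 469 and 622 in WT and 872, 1979 and 616 in T/T (95% CI -0.33 to 1.65). Plxnd1 had 2292, 2957 and 4296 in WT and 2937, 3233 and 3100.3 in T/T tumors (95% CI -0.48 to 0.49). Tumors were whole tissue: endothelial markers, from cells that carry plexin D1, summed to 9942 to 14615 and fibroblast markers to 127907 to 179215, whereas no crypt library's endothelial sum passed 218, and the part of these cells in the tumor level of Plxnd1 was not tested.

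The 14 conditions were set side by side on a common scale, made by scaling all 42 libraries on 13591 genes. On this scale Sval1 was highest in WT crypts after DSS of the null colony (17463 ± 2008, SD, n = 3) and lowest in proximal WT crypts of the same colony (228 ± 57.6, SD, n = 2). Proximal Mtg16-/- crypts (3732 ± 904) stood above proximal T/T crypts (1663 ± 124), and these above both proximal WT groups, each apart from the next with no overlap. Among the 10 conditions with higher Sval1 each overlapped its neighbour, although both tumor groups (2747 to 7910 over their 6 libraries) lay below every baseline distal WT library (12313 to 19016). Nxpe2 was highest in distal WT crypts of the null colony (11023 ± 1185, SD, n = 4) and lowest in proximal Mtg16-/- crypts (66.1 ± 23.5, SD, n = 2), below proximal T/T crypts (301 ± 143) and the tumors (884 ± 350.1 and 975 ± 18.9).

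Slc37a2 was highest in proximal T/T crypts (27340 ± 2237, SD, n = 2), next to distal Mtg16-/- crypts with which they overlapped, and lowest in WT tumors (514 ± 321, SD, n = 3). Its 4 lowest conditions were the tumors and the mutant crypts after DSS. Stom was lowest in proximal T/T crypts (1879 ± 259, SD, n = 2), and 12 of its 13 neighbouring pairs overlapped. Ceacam12 was highest in the proximal WT crypts of both colonies (1588 ± 121 and 1531 ± 438, SD, n = 2 each), apart from all that followed, and lowest in distal T/T crypts (40.6 ± 13.1, SD, n = 4), although distal Mtg16-/- crypts had 36.1 ± 23.7 (SD, n = 3) without the library labelled replicate 2. Plxnd1 was highest in the tumors (2384 ± 760.4 and 2339 ± 149, SD, n = 3 each), followed by proximal WT crypts of the null colony (541 ± 43.6, SD, n = 2). Matn2 was highest in proximal T/T crypts (1029 ± 14.9, SD, n = 2), which overlapped T/T tumors (881 ± 570.0, SD, n = 3), and lowest in distal WT crypts of the null colony (63.0 ± 7.4, SD, n = 4). The Mtg16-/- values of distal crypts in this order hold the library labelled replicate 2, and without it their means were 15999.6 for Sval1, 10018 for Nxpe2, 11149 for Stom, 21025 for Slc37a2, 74.3 for Plxnd1 and 77.0 for Matn2. Stom would then be highest in distal Mtg16-/- crypts.

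**Figure D5:**
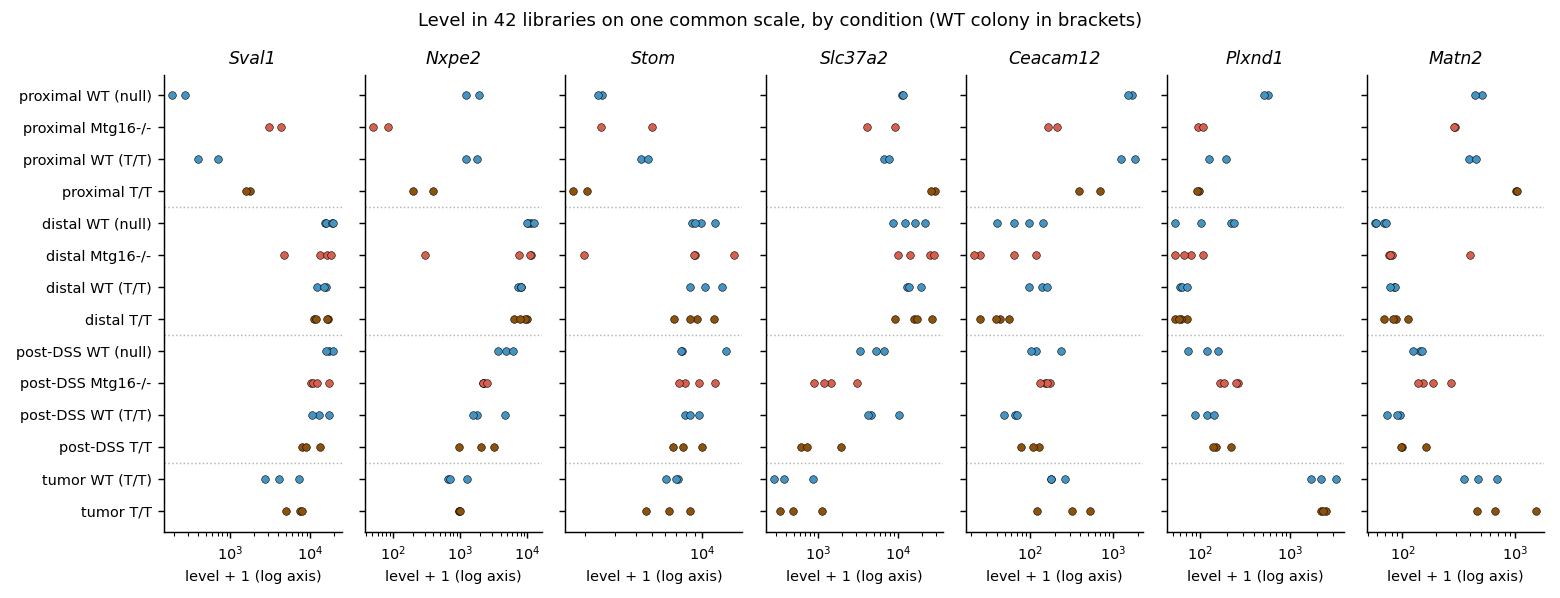
Level of the 7 genes in all 42 libraries on the common scale (level + 1, log axis), by condition, with 1 point per library. Ceacam12 is highest in proximal WT crypts, Slc37a2 and Matn2 in proximal T/T crypts and Plxnd1 in tumors.

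Genes with the pattern most like each member were read from the 36 crypt libraries on the common scale, among 14101 genes, as Pearson's r of log2 levels. The libraries share segments, colonies and requests, so these are descriptions. Vtcn1 (r = 0.937), Spink1 (0.921) and Avpr1b (0.915) were most like Sval1. Nxpe2 was nearest to C4bp (0.912), Soat1 (0.898) and Pakap (0.896), and Stom to Ly6a (0.932), Ly6c1 (0.931) and Lbp (0.929). The nearest to Slc37a2 were Cpm (0.893), Pbld2 (0.887) and Gsdmc2 (0.875), and to Ceacam12 they were Cmah (0.888), Ak4 (0.851) and Sp5 (0.845). Matn2 was nearest to Abcc5 (0.964), Tubb2a (0.934) and Fam3c (0.933). Plxnd1 had the weakest matches of the 7, Hilpda (0.739), Mmp7 (0.718) and Cox16 (0.705). Among the members, Stom and Matn2 (r = -0.862) and Sval1 and Ceacam12 (r = -0.848) ran most strongly against each other, and Ceacam12 and Matn2 (0.787) and Sval1 and Stom (0.781) most strongly together. Without the library labelled distal Mtg16-/- replicate 2, the r of the 21 nearest genes moved by at most 0.0146 and that of the 21 member pairs by at most 0.0678.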

How the data were processed

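Mouse colon crypts and tumors were profiled by paired-end RNA-Seq of poly(A) RNA. The authors trimmed reads with fastp 0.20.0, quantified them with Salmon 1.3.0 on GENCODE vM21 transcripts (GRCm38), imported them per gene through tximeta and divided them by a DESeq2 1.26.0 size factor per library (R 3.6.3). The deposited signal values are these normalized counts, 1 table per comparison, 9 in all, each scaled on its own libraries. The authors' own fold changes and p-values stand beside them and were not used, and 0 per-sample columns were left unused.

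The 7 genes and the lists of relatives and markers were chosen with earlier results of these data known. Genes averaging 10 or more normalized counts in a table were compared after log2 transformation (pseudocount 1) by limma's trend method (limma 3.58.1, R 4.3.3), and p-values were adjusted by Benjamini-Hochberg over all genes of a table, with a threshold of 0.05. A count model was not the main test because the tables hold normalized values. Whole reads were recovered in 7 tables (tolerance 0.1 of a read), and edgeR 4.0.16 and DESeq2 1.42.0 were run on them as alternatives. In the 2 proximal mutant tables a library's size factor lies too close to 1 for this. Exact permutation tests over libraries were two-sided, 49 in all, and unadjusted. Differences between effects in 2 tables used the log2 differences and their standard errors. The named genes were the 7 members, the 3 genes most like each, and up to 3 relatives per family list past the threshold in the WT segment or distal mutant comparisons. The fits were tested on simulated data.

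Depth leaves counting error small beside the spread between libraries, except for genes with low counts. The labels speak of littermate-matched mice but do not say that each library is a separate mouse, so p-values measure the spread between these libraries. Same-numbered WT and Mtg16-/- libraries after DSS deviated together (3 pairs, correlations of 0.317 to 0.554). The replicate block treats the numbers as pairs there from this check alone, as no label explains the numbering, and the main fit does not. Alternatives were a pseudocount of 0.1, no filter on low values, leaving out each library, a replicate block, the Xist level or the request number as a covariate, fits within a request, equal library totals, edgeR and DESeq2. Fits without the library labelled distal Mtg16-/- replicate 2 in combination with another choice were added after seeing the data. Some markers, among them Muc2, were not analysed here.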

Additional observations from a re-analysis of the deposited data

Results flagged for a closer look

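Of 42 sets of member values with 4 to 10 libraries, 1 held a library far from the rest, where chance gives about 1 in 20: Matn2 was 374 normalized counts in the library labelled distal Mtg16-/- replicate 2 and 71.0 to 75.3 in the other 3 Mtg16-/- libraries. The same library had Hoxb6 and Hoxb13 levels against its distal label, and its part in the Matn2 value was not tested further.

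The T/T effect on Ceacam12 differed between distal crypts after DSS and at baseline by 2.42 on the log2 scale, by a test of the difference (adjusted p = 0.043 with limma's standard errors).

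In 7 cases every mutant library stood on one side of WT in one setting and on the opposite side in another, over the pairs of both mutants in 1 setting and of proximal, distal and post-DSS distal crypts in 1 mutant. One of these is the tested Ceacam12 difference above, between distal T/T crypts after DSS and at baseline. The other 6 differences were not tested because the proximal contrasts chose the genes. For Slc37a2 the proximal Mtg16-/- difference minus the proximal T/T difference was -2.81 on the log2 scale, and for Matn2 it was -2.04. The proximal minus the distal Mtg16-/- difference of Matn2 was -1.59 with the library labelled replicate 2 and -1.01 without it. The proximal baseline minus the distal post-DSS difference, in which segment and injury both differ, was -3.36 for Plxnd1 in Mtg16-/- crypts and 4.54 for Slc37a2 and -2.23 for Ceacam12 in T/T crypts.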

How the results depend on the processing

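Over 826 log2 differences of members under the alternatives in the tested comparisons, 734 kept their direction and their side of the threshold, 32 lost the threshold, 12 gained it and 48 turned direction, and the cause was not tested. The 126 values in the proximal mutant contrasts moved by less than the SD between libraries. With 2 libraries per group, leaving out a library cannot move a value by more than this SD. A replicate block or no filter does not move it at all, so nothing is read from that result. Of the turned values 1 member had passed the threshold, Slc37a2 in the WT segments (-0.13 with the request as a covariate and within request 4149). In distal Mtg16-/- crypts Stom (-0.85 to 0.14 leaving out each library, 0.40 within request 4149, and without the library labelled replicate 2 also 0.14 with the request as a covariate, 0.18 with edgeR and 0.17 with DESeq2), Ceacam12 (0.10 within request 5094) and Plxnd1 (0.34 within request 5094) turned. Leaving out each library also turned, in distal T/T crypts, Sval1 (-0.18 to 0.038), Nxpe2 (-0.036 to 0.19), Slc37a2 (-0.19 to 0.33) and Matn2 (-0.079 to 0.16). After DSS it turned Stom (-0.21 to 0.25, and 0.11 with the Xist covariate) and Ceacam12 (-0.14 to 0.46, -0.00094 with edgeR and -0.0070 with DESeq2) in Mtg16-/- crypts, and Nxpe2 (-0.77 to 0.12) and Stom (-0.27 to 0.013) in T/T crypts. In WT crypts after DSS it turned Sval1 (-0.33 to 0.012) and Matn2 (-0.074 to 0.11, -0.046 with equal totals and -0.0011 with DESeq2), and in tumors Stom (-0.32 to 0.10), Slc37a2 (-0.17 to 0.78), Ceacam12 (-0.054 to 0.97) and Plxnd1 (-0.21 to 0.25, -0.036 with edgeR and -0.041 with DESeq2). Without the library labelled distal Mtg16-/- replicate 2, Stom turned to 0.38 in the Mtg16-/- minus the T/T effect, and Sval1 to -0.40, Nxpe2 to -0.92, Stom to -0.19 and Matn2 to 0.076 in the Mtg16-/- effect after DSS minus baseline.

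Counts of members called moved in several comparisons. In the T/T colony Xist was at most 8.05 normalized counts in proximal crypts and 4.29 in crypts after DSS. The Xist covariate in those 2 mutant comparisons therefore follows background reads and does not adjust for sex, and nothing is read from it. In proximal T/T crypts, a description, the count of 3 became 1 with no filter, 6 with the Xist covariate, 6 with a replicate block and 0 to 3 leaving out each library. It was 0 without WT replicate 1. For distal T/T crypts the count of 0 became 1 with DESeq2. After DSS in Mtg16-/- crypts the count of 1 became 4 with the replicate block, 2 with DESeq2, 0 with the Xist covariate and 0 to 1 leaving out each library, and without Mtg16-/- replicate 4 the gene called was Slc37a2. After DSS in T/T crypts 0 became 1 with the Xist covariate (Slc37a2 at -4.02, limma adjusted p = 0.000774) and 1 with DESeq2. For WT crypts after DSS 3 became 0 with the Xist covariate and 0 to 5 leaving out each library. The count of 1 for the T/T effect after DSS minus baseline became 0 with no filter. Leaving out each library gave 3 to 4 members in proximal Mtg16-/- crypts, 6 to 7 in the WT segments and 0 in distal Mtg16-/-, distal T/T, post-DSS T/T and tumor comparisons.

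Counts over all genes moved by more than 1.5 times as well. For the mutant comparisons of proximal and post-DSS crypts in the T/T colony, the Xist covariate carries the limit given above. In the WT segments 5824 became 3189 with the request as a covariate, 2014 within request 4149 and 3540 with only null-colony WT libraries. In proximal Mtg16-/- crypts 9 became 42 with the Xist covariate, 32 with a replicate block and 6 to 22 leaving out each library. The 32 of proximal T/T crypts became 535 with the Xist covariate, 151 with the block, 2 with no filter and 0 to 27 leaving out each library (0 without WT replicate 1). For distal Mtg16-/- crypts 33 became 224 with DESeq2, 143 without the library labelled replicate 2 (2 to 143 over the libraries), 1 with the block, 8 with the request as a covariate, and 2 and 0 within requests 4149 and 5094. The 5 of distal T/T crypts became 51 with DESeq2, 3 with the Xist covariate, 0 with the block and 0 to 8 leaving out each library. After DSS 91 in Mtg16-/- crypts became 780 with DESeq2, 1271 with the block, 19 with the Xist covariate and 28 to 106 leaving out each library, and 0 in T/T crypts became 121 with the Xist covariate, 298 with DESeq2 and 0 to 3 leaving out each library. For WT crypts after DSS 4833 became 2679 with the block, 1 with the Xist covariate and 1 to 9086 leaving out each library. In tumors 0 became 30 with DESeq2, 1 with no filter and 0 to 1 leaving out each library, and for the Mtg16-/- effect after DSS minus baseline 1 became 4 with no filter and 49 without the library labelled replicate 2. Outside Mtg16-/- crypts after DSS the labels and deviations do not show that replicate numbers pair the libraries, and the 2 pairs of each proximal table had a correlation of 0.147.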
